A study of Mus musculus with 2 samples.

Results

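Cells take up, reduce, store and export iron through a small set of proteins, and 10 genes of this set were followed here in mouse embryonic fibroblasts given celastrol. They were the Steap metalloreductases (Steap1, Steap2, Steap3, Steap4), the transferrin receptor Tfrc, the importer Slc11a2, the exporter Slc40a1, the ferritin heavy chain Fth1 and the iron regulatory proteins Ireb2 and Aco1. The genes were chosen by name, with the celastrol minus DMSO differences of these arrays already known, so those differences are given as a description and no test was made of them. The 10 genes are among 19946 genes for which a probe set (the group of array probes read as one value) named that gene alone. Of the 10, 9 exceeded the detection limit of 5.73 on the log2 scale in at least 1 array, as did 13902 of all genes. That limit is the value that 95% of readings from 1210 probe sets of olfactory and vomeronasal receptor genes, not expected in fibroblasts, do not exceed.

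The cells of both groups were embryonic fibroblasts carrying an adenovirus with LacZ, a bacterial enzyme gene in common use as a control cargo. One group received DMSO, the solvent, and the other 250 nM celastrol, a plant triterpenoid with a reactive quinone methide group, both for 7 h in DMEM with 1% FBS. Each group was 1 array, and the labels name neither the strain nor the passage of the cells. Treatment cannot be told apart from differences between the cultures or between the arrays. The spread between cultures is unknown, and differences are given without p-values, errors or replicate checks. RNA came from whole cultures, in which fewer cells of a type and less RNA per cell cannot be told apart.

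Iron reaches most cells bound to transferrin, which enters with its receptor; in the acidic endosome the ferric ion is released, reduced by a Steap enzyme and passed to the cytosol by the divalent metal transporter. Ferritin holds the surplus, and ferroportin, the product of Slc40a1, exports it. When iron is scarce, the iron regulatory proteins bind hairpins called iron-responsive elements, which blocks translation of ferritin and ferroportin mRNA and protects the transferrin receptor mRNA from decay. Steap proteins reduce iron and copper with electrons from NADPH, except that Steap1 lacks the NADPH-binding domain of the other members.

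Matches to the NF-kB motif, the binding pattern of an inflammatory transcription factor family, occurred in promoter windows of 3 of the reductase genes, and these genes differed in direction between the arrays. The windows are the 250 bases before an annotated start, from RefSeq on build GRCm38.p6, printed 5′ to 3′ on the gene's strand, with NF-kB matches in capitals. They are shown because the members with the lowest and the highest difference, Steap4 and Steap3, both hold a match, as does Steap2, whose value was nearly the same in both arrays. The Steap4 window lies at chr5:7960222-7960471 on the plus strand. The Steap3 window, the second of 4 for that gene, lies at chr1:120270271-120270520 on the minus strand, and the Steap2 window, the third of 3, at chr5:5694090-5694339 on the minus strand.
Steap4: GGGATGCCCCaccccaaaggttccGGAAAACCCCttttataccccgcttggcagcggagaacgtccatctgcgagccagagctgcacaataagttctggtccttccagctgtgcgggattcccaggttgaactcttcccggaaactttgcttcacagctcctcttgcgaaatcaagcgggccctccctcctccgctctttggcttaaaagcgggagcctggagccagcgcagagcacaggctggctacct
Steap3: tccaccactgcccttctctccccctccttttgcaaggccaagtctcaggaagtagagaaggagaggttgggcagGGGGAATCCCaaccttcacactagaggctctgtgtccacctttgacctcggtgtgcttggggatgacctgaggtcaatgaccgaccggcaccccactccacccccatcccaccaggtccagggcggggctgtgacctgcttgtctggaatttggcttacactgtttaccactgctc
Steap2: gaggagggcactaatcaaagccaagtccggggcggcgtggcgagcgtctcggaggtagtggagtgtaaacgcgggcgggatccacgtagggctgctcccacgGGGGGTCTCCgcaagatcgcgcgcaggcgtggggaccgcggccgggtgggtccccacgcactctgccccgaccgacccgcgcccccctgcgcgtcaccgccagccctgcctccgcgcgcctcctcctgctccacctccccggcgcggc

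The Steap4 window held 2 NF-kB matches, whose first bases lay 250 and 226 bases before the start, and those of Steap3 and Steap2 held 1 each, at 176 and 148 bases. The NF-kB motif was read as GGG, then A or G, any 2 bases, C or T in each of 2 places, and CC. On either strand of the same 250 bases before the start, it matched 7.25% of all 32851 windows. Among members it matched 3 of the 15 windows of 8 genes. Those 15 windows are not independent, since those of a gene can overlap. The NRF2 antioxidant response core (TGACNNNGC, on either strand, 10.2% of all windows) matched 1 member window, the first of Steap2, 25 bases before the start. No member window held the heat shock element GAANNTTC (6.69% of all windows) or the ATF4 motif TGATGNAA (3.45%). Steap1, Tfrc, Fth1, Ireb2 and Aco1 had windows without any of these matches, and Slc11a2 and Slc40a1 were not among the members with a window. A match is a run of letters and not a measured binding site.

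The 4 reductases did not share a direction. Steap4 was lower with celastrol, Steap3 and Steap1 were higher, and Steap2 differed little, so that differences in this family spanned 3.10 on the log2 scale. Steap4, a plasma membrane and endosomal iron and copper reductase first described as a TNF-inducible gene in mouse adipocytes, read 10.69 with DMSO and 8.47 with celastrol. Its difference of -2.22 is 4.65-fold lower, and it had the next to lowest difference of all 13902 detected genes. Its celastrol value still stood 2.75 above the detection limit. None of the 1210 receptor probe sets differed by as much, and their central 95% lay between -0.42 and 0.41. Receptor probe sets are dim and their scatter does not include variation between cultures.

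Steap3, the ferrireductase of transferrin endosomes in erythroid precursors and also known as a p53-inducible gene, read 9.28 with DMSO and 10.17 with celastrol. The difference of 0.89, or 1.85-fold higher, ranked 366 from the top, and 2.63% of detected genes were at least as high. Steap1, which is abundant in prostate tumours in humans, read 9.87 with DMSO and 10.41 with celastrol. It was 1.45-fold higher (difference 0.54), a value that 7.16% of detected genes reached or exceeded. Steap2, a Golgi and endosomal reductase, read 11.04 with DMSO and 11.08 with celastrol, a difference of 0.03. The gap between the differences of Steap3 and Steap4 was 8.60-fold and that between Steap1 and Steap4 was 6.75-fold.

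Steap2 was the only member with more than 1 probe set. The other, 10519484, is annotated with a single cDNA, stayed under the detection limit in both arrays (5.62 and 5.31) and gave -0.32, opposite in sign to the brighter probe set 10528008. No probe set named a member together with another gene. The plot of member values by array shows these levels, in which only a gene's own pair of values can be compared, since probe sets differ in their response.

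**Figure D1:**
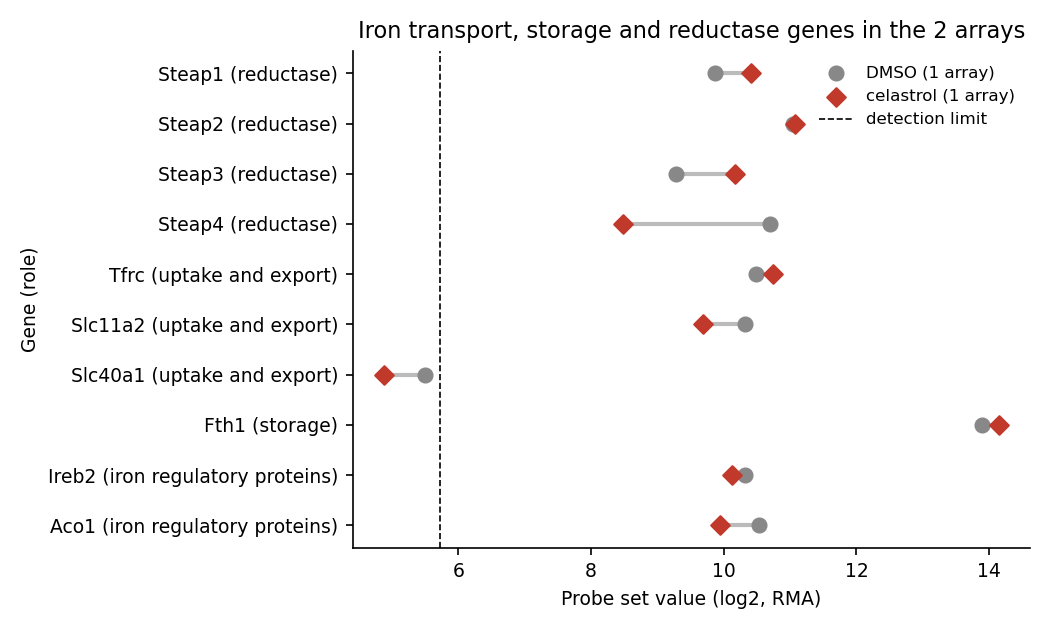
Values of the 10 genes on the log2 scale (x axis) in the DMSO array (grey circles) and the celastrol array (red diamonds), 1 array each, with the detection limit of 5.73 as a dashed line; genes and their roles are on the y axis. The longest line is that of Steap4, from 10.69 to 8.47, and both Slc40a1 values lie left of the limit.

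Steap1, Steap2 and Steap4 lie near each other on mouse chromosome 5 while Steap3 lies on chromosome 1. In gene order on GRCm38.p6, the neighbours within the stretch and 4 protein-coding genes on each side numbered 11, of which 7 were detected. Their differences ran from -0.35 for Gm8773 to 0.59 for Gtpbp10, a GTP-binding protein gene. The immediate detected neighbour of Steap4 was Sri, which encodes the calcium-binding protein sorcin, at 11.09 with DMSO and 10.75 with celastrol (difference -0.35). Zfp804b and Tex47, between Steap1 and Steap4, were under the detection limit in both arrays. No detected neighbour was as low as Steap4. Since Steap4 had the next to lowest difference of all 13902 detected genes, this could hardly have come out otherwise, and nothing is read from it.

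The iron carriers also went in different directions. Tfrc, which takes up transferrin, read 10.49 with DMSO and 10.75 with celastrol, 1.19-fold higher (difference 0.26). Slc11a2, the divalent metal transporter that carries iron out of endosomes, read 10.33 with DMSO and 9.69 with celastrol, 1.55-fold lower (difference -0.63). As low or lower were 3.78% of detected genes, and 10 of the 1210 receptor probe sets differed by as much in either direction. Slc11a2 makes transcripts with and without an iron-responsive element, which its single probe set does not separate here. Slc40a1, the exporter ferroportin, was under the detection limit in both arrays, at 5.49 and 4.87, so no fold is given for it.

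Ferritin heavy chain transcript was slightly higher. Fth1, whose product oxidises ferrous iron for storage, read 13.89 with DMSO and 14.15 with celastrol, 1.19-fold higher (difference 0.26). The highest value of any probe set was 14.52, so Fth1 lay near the top of the scale, where differences may be compressed. Processed copies of the ferritin heavy chain gene exist in the genome, and whether its probes match them was not examined. Differences as far from 0 as that of Fth1 were seen in 40.6% of detected genes and 20.0% of receptor probe sets.

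Both iron regulatory proteins had lower values. Aco1, which encodes the protein that is a cytosolic aconitase with its iron-sulphur cluster and an RNA-binding regulator without it, read 10.53 with DMSO and 9.95 with celastrol. Its difference of -0.58 fell just short of 1.5-fold, and 4.77% of detected genes were as low or lower. Ireb2, the related regulator that is degraded when iron is plentiful, read 10.31 with DMSO and 10.12 with celastrol, 1.14-fold lower (difference -0.19). Differences of that size were common, being reached in either direction by 52.4% of detected genes.

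Among the 9 detected members, 5 were higher and 4 lower, with a median difference of 0.03, and among all detected genes 48.1% were higher and the median was -0.01. At least 1.5-fold higher was 1 member, Steap3, where the background was 6.19% of detected genes, and at least 1.5-fold lower were Steap4 and Slc11a2, where it was 4.68%. At 2-fold, no member was higher (background 1.88%) and Steap4 was lower (background 0.662%). Nothing is read from these counts, because the members were named with these differences known. Aco1 at -0.58 lay just inside the 1.5-fold line and Slc11a2 at -0.63 just outside it. Steap2, Tfrc, Fth1 and Ireb2 lay within the central 95% of receptor probe sets, and the other 5 outside it. The share of all detected genes outside that range was not counted, so nothing is read from this. Of the 5, Steap1 at 0.54 lay nearest to 0, and 12.9% of detected genes lay as far from 0.

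**Figure D2:**
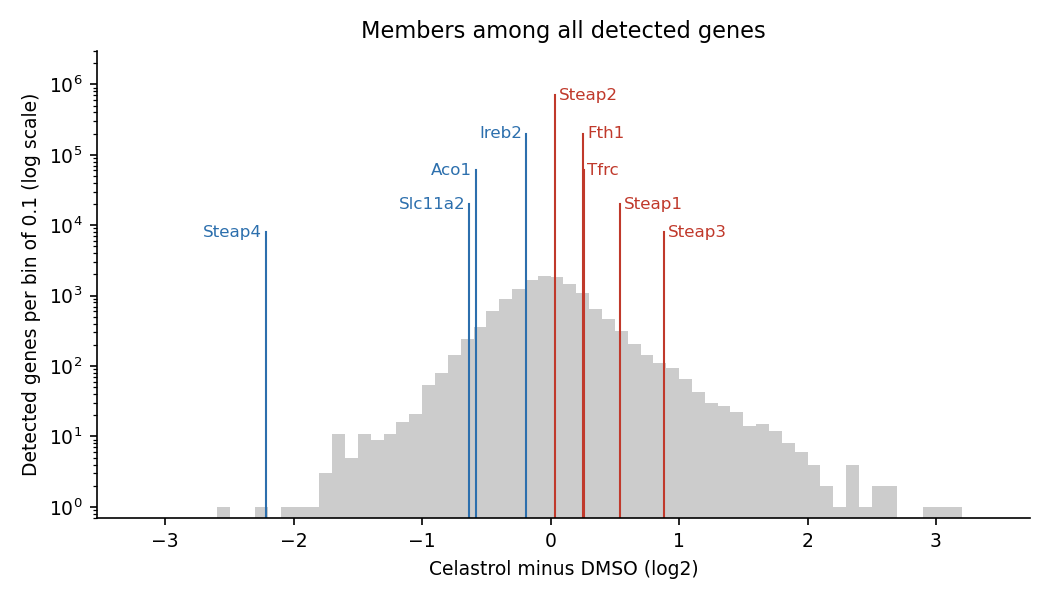
Celastrol minus DMSO on the log2 scale (x axis) for 13902 detected genes in bins of 0.1 (grey, log-scaled y axis), with the 9 detected members as vertical lines, red for higher and blue for lower; line height only separates the labels. Steap4 at -2.22 stands in the lower tail and Steap3 at 0.89 on the upper shoulder, with the other 7 between -0.63 and 0.54.

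The genes most like the 2 extreme members were taken as those with the nearest difference over the 2 arrays. For Steap4 they were Cxcl5, a neutrophil chemokine (-2.07), Nos2, the inducible nitric oxide synthase (-2.51), and Hmgcs1, an enzyme of the mevalonate pathway (-1.90). For Steap3 they were Slc20a1, a phosphate transporter, Ubxn4, an endoplasmic reticulum protein of protein degradation, and Tbc1d9, each at 0.89 or 0.88. Over 2 arrays such likeness is a matter of the size of 1 difference only. Since Steap4 had the next to lowest difference of all detected genes, its nearest genes could hardly be other than very low ones. Nothing is read from which genes they were.

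Other iron, copper and redox genes were grouped in 9 lists from textbook knowledge, 94 genes in all, of which 78 were detected. Celastrol values were higher for 36 and lower for 42. The 1.5-fold line was passed upward by 8 (10.3%) and downward by 5 (6.41%), beside 6.19% and 4.68% of all detected genes. Among the 8 were Nqo1, Cyb5r1 and Mtrr, which were listed as reductases and not as iron or copper genes. The lists were drawn up with results of these arrays known, and counts of higher and lower genes in each stand beside 48.1% higher and 51.9% lower among all detected genes. Among storage partners, Ftl1, the ferritin light chain, read 12.88 with DMSO and 13.12 with celastrol (difference 0.24), beside 0.26 for Fth1. Ncoa4, the receptor that delivers ferritin to autophagy, differed by 0.26, and its other probe set by 0.27. Fbxl5, the ubiquitin ligase subunit that degrades Ireb2 protein, was the highest of this list, reading 8.63 and then 9.10 with celastrol, or 1.39-fold higher. The iron chaperone Pcbp2 was the lowest at -0.05, with Pcbp1 at -0.02. The median was 0.25 and no gene passed 1.5-fold, with 3 of the 5 genes above the limit in both arrays higher. The sixth, Ftmt, mitochondrial ferritin, was above it with celastrol only (5.52 and 5.87).

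Mitochondrial and haem carriers went both ways. Flvcr1, a haem exporter in its best known role, read 9.41 with DMSO and 10.51 with celastrol. It was 2.14-fold higher, and its other probe set gave 0.84. Slc25a37, mitoferrin 1, the iron importer of the mitochondrial inner membrane, read 9.40 with DMSO and 10.45 with celastrol, 2.08-fold higher. Slc48a1, which carries haem out of lysosomes, was 1.82-fold higher. Abcb10, a mitochondrial inner membrane ABC transporter, was the lowest, with a difference of -0.59, just past 1.5-fold. Slc46a1, a folate transporter that also carries haem, was 1.42-fold lower and Sfxn1, a mitochondrial serine carrier, 1.30-fold lower. Of the 8 detected genes in this list 5 were higher, with a median of 0.38 that became 0.22 when no detection limit was set.

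Reductases outside the Steap family also went both ways. Of 10 detected, 4 were at least 1.5-fold higher and 0 lower, beside 6.19% and 4.68% of all detected genes. Nqo1, a quinone reductase, read 7.00 with DMSO and 8.46 with celastrol, 2.76-fold higher. Cyb5r1, a cytochrome b5 reductase family gene, was 2.40-fold higher, and Mtrr, the methionine synthase reductase, 1.61-fold higher. Frrs1, a ferric-chelate reductase related to the cytochrome b561 proteins, read 10.07 with DMSO and 11.02 with celastrol, 1.93-fold higher, close to the 1.85-fold of Steap3. Cyb5r3 was the lowest of the 10 detected genes at 1.26-fold lower, followed by Cyb561d2 at 1.21-fold lower. Cybrd1, the duodenal ferric reductase, was above the limit with celastrol only (5.70 and 5.85). Of the other 9 genes 5 were higher and 4 lower, with a median of 0.18, or 0.16 with Cybrd1.

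Of 6 detected iron, copper and redox genes linked to inflammation, 5 were lower, beside 51.9% of all detected genes, with a median of -0.48. At least 1.5-fold lower were 2 of them, beside 4.68% of all detected genes. Hp, which encodes the haemoglobin-binding haptoglobin, read 7.74 with DMSO and 6.09 with celastrol, 3.12-fold lower. Lcn2, the siderophore-binding lipocalin, read 12.38 with DMSO and 11.52 with celastrol, 1.82-fold lower. Slc39a14, a transporter of zinc and non-transferrin iron, was 1.34-fold lower, and Sod2, the mitochondrial superoxide dismutase, 1.46-fold lower. Bdh2, an enzyme linked to a mammalian siderophore, was the exception at 1.24-fold higher, and Hamp, the gene of the iron hormone hepcidin, was under the detection limit in both arrays.

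Iron-sulphur cluster assembly genes were lower in 18 of 24 detected cases, beside 51.9% of all detected genes. Their median was -0.18, and that of all detected genes was -0.01. Bola3, a late-acting mitochondrial factor, read 9.27 with DMSO and 8.45 with celastrol, 1.76-fold lower. Iscu, the assembly scaffold, read 10.62 with DMSO and 10.01 with celastrol. It was 1.53-fold lower, and its other probe set gave -0.51. Nfs1, the cysteine desulphurase, was 1.33-fold lower, and Hspa9, the mitochondrial HSP70 that also imports proteins, was the highest at 1.35-fold higher.

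The remaining lists held few large differences. In the transferrin cycle and systemic list, 9 of 14 genes were detected, 6 of them in both arrays, and none passed 1.5-fold, from Cp, ceruloplasmin, at -0.31 to Snx3, a sorting nexin that recycles the transferrin receptor, at 0.35. Among the other importers, Mcoln1, a lysosomal cation channel, was 1.49-fold higher, and Frrs1 and Lcn2, given above, were the extremes of 6 detected genes, 3 of them higher and 3 lower. Transcripts outside the member set that carry an iron-responsive element ran from -0.32 for Epas1, the hypoxia factor HIF2-alpha, to 0.24 for Ftl1 over 5 detected genes. Of 10 detected copper genes, Slc31a1, the copper importer CTR1, was 1.52-fold higher and Atox1, a copper chaperone, was lowest at -0.25, with a median of 0.04. The plot of lists shows these differences beside those of the members.

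**Figure D3:**
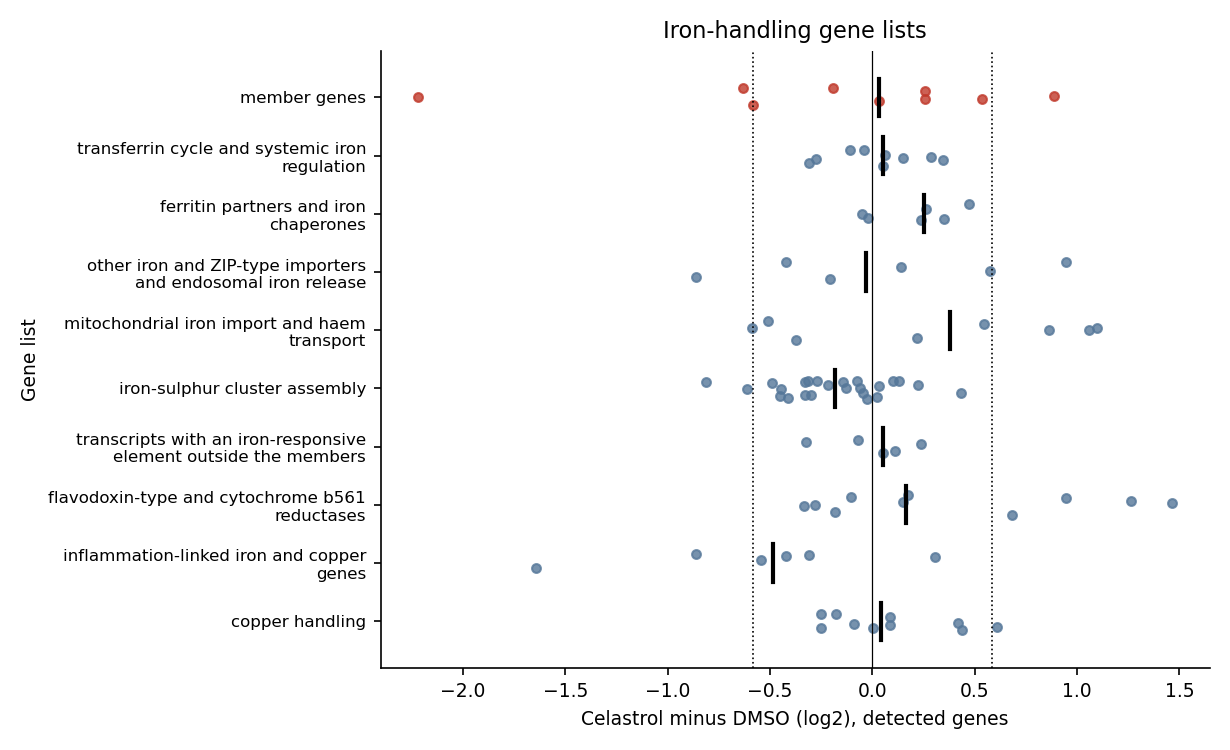
Celastrol minus DMSO on the log2 scale (x axis) of each detected gene, for the 9 detected members (red) and 9 other lists (blue, y axis). The lists hold other iron, copper and redox genes, and 6 detected genes stand in more than 1 list. Black bars are list medians and dotted lines mark 1.5-fold. List medians run from -0.48 for the inflammation-linked genes to 0.38 for mitochondrial iron and haem transport, and Steap4 at -2.22 is the lowest point.

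Fibroblast markers were present, with 9 of 11 detected, among them Vim, Col1a1 and Col1a2, while Lum and Fap were under the limit in both arrays. Of the 9, 7 were lower with celastrol (51.9% of all detected genes were lower), with a median of -0.24. S100a4, a calcium-binding protein gene, was the lowest at 1.84-fold lower and Col1a1, a collagen chain, was 1.38-fold lower, while Pdgfra, a growth factor receptor, was the highest at 1.21-fold higher. Macrophages are rich in ferritin and ferroportin, and 4 of 10 macrophage markers were detected. Tyrobp was above the limit with celastrol only (5.69 and 5.78), and the other 3 had higher values with celastrol, beside 48.1% of all detected genes. Csf1r read 5.99 and 6.25, Cd68 was 2.76-fold and Cd14 1.63-fold higher, whereas Adgre1, Itgam, Lyz2, Ptprc, Aif1 and Cd163 were under the limit in both arrays. Of the 7 erythroid markers measured, 5 were detected, 3 of them in both arrays. Epor was the brightest at 6.84 with DMSO and 6.62 with celastrol, and no erythroid marker differed by more than 0.23 in either direction. Hepatocyte markers were detected for 2 of 7 measured genes, both higher with celastrol, with Alb, Ttr and Fgb under the limit. Apoa1 read 6.41 with DMSO and 6.51 with celastrol, and Hnf4a 6.38 and 6.51. Adipocyte markers were detected for 4 of 7, with Adipoq under the limit and Fabp4 brightest at 7.54 and 7.94. All 4 had higher values with celastrol, with a median of 0.25, though Cidec was above the limit with celastrol only. Epithelial markers were detected for 5 of 7 genes, with Krt8 highest at 6.96 and 6.92. The detection limit of 5.73 lies under the array medians of 6.33 and 6.35. A marker counted as detected therefore does not show that cells of its type were present. The part of such cells in the member values was not tested.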

How the data were processed

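The authors deposited log2 expression values per probe set for 2 Affymetrix whole-transcript mouse arrays, 1 per group, made with RMA (background correction, quantile normalization and a summary per probe set) per the submitters' processing notes. The notes give no version or settings. A range of 2.73 to 14.52, with array medians of 6.33 and 6.35, set the scale as log2. Differences of dim probe sets are often compressed by RMA. RNA was extracted with Trizol, cleaned on a column and labelled with biotin, per the labels' protocols. Scanner files were not used here.

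Of 35556 probe sets, 21797 named 1 gene in GEO's platform annotation, 1613 several and 12146 none; only the first kind was used. Symbols were updated by Entrez identifier through a RefSeq table of GRCm38.p6. Where a gene had several probe sets, the one brightest on average was used, and the difference was celastrol minus DMSO, with folds as 2 raised to it. Members, lists and alternatives were chosen with earlier results of these data known. Beyond the members, genes named were those past 1.5-fold in each of the 9 lists, with its highest and lowest gene. Also named were the brightest markers of each cell type and the 3 genes nearest in difference to each extreme member, leaving out provisional symbols. Some further genes were named after their values were seen. Among them were S100a4, Pdgfra, Pcbp1, Ftmt, Slc46a1, Sfxn1, Cyb561d2, Ftl1, Ncoa4 and Nfs1. Others were Sod2, Slc39a14, Cybrd1, Mcoln1, Hamp, Cidec and the markers under the limit. Motifs were searched by exact pattern on both strands of the 250 bases before each start, in members and in all genes alike. The counting procedure was run on a copy of the DMSO array with known differences added and no noise, and it returned them. That check covers the counting steps only and not the variation of real arrays. Precision is limited by the number of arrays. Software was Python 3.11.15 with statsmodels 0.14.6, numpy 2.4.6, pandas 2.3.3 and matplotlib 3.10.9.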

Additional observations from a re-analysis of the deposited data

How the results depend on the processing

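With 1 array per group, no array could be left out, and no paired analysis was possible because there was 1 array per group and no pairs. Differences of the members were recalculated with probe sets of a gene averaged, with quantile normalization, and with a subtracted lowess trend (fraction 0.3) and a subtracted median difference. All 40 values moved by less than 0.41, the reach to either side of the central 95% of receptor probe sets, and by 0.17 at most. Steap4 ran from -2.22 to -2.17, Steap3 from 0.89 to 0.93 and Slc11a2 from -0.63 to -0.59. Steap2 turned to -0.14 when its probe sets were averaged. The count of members at least 1.5-fold lower was 2 in every setting except with no detection limit. There Slc40a1 made it 3, beside 3.39% of all genes. The counts of 1 member higher at 1.5-fold, and of 0 higher and 1 lower at 2-fold, were the same in every setting run. At 3-fold, counted with the main processing only, 0 members were higher and 1 lower, beside 0.432% and 0.137% of all detected genes. The 54 recalculated list medians, for which a detection limit of 6.34 (the overall median) and no limit were also run, moved by 0.16 at most. The transferrin list changed sign (-0.11 to 0.07), as did the importer list (-0.03 to 0.03). The mitochondrial and haem list had a median of 0.22 with no limit. Signal over background could not be examined, and Slc40a1 lay under the detection limit.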
